A study of Mus musculus with 39 samples.

Results

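Nuclear receptors were followed in mouse oocytes, fertilised 2-cell embryos, cloned 2-cell embryos and the cumulus cells from which the clones were made. The set held 45 genes listed by symbol, and its members were taken through the RefSeq accession that each probe carries. Of the 45 genes 44 had at least 1 probe, 60 probes in all among 41174 on the array, and 42 passed a filter that asks for an intensity of at least 10 on at least 1 array of the IVF, TSA(-), TSA(+) or Spi-C groups. Nr3c2, the mineralocorticoid receptor gene, was matched by no probe, and Nr2f1 and Nr4a3 did not pass the filter.

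The study used somatic cell nuclear transfer (SCNT), in which the nucleus of an oocyte is replaced by that of a body cell, and asked how trichostatin A (TSA), an inhibitor of histone deacetylases, and an injected mRNA for the transcription factor Spi-C alter the clones. All mice were (B6xDBA/2)F1. The 7 groups were metaphase II oocytes (OC, n = 7), 2-cell embryos from in vitro fertilisation (IVF, n = 6), cloned 2-cell embryos without TSA (TSA(-), n = 8), clones given 5 nM TSA for 8 h from activation (TSA(+), n = 6), clones injected at the pronuclear stage with Spi-C mRNA at 1.0 mg/ml (Spi-C 1.0, n = 4) or 0.1 mg/ml (Spi-C 0.1, n = 4), and cumulus cells (Cumulus, n = 4). The labels list no TSA for the Spi-C groups. Each oocyte or embryo array came from a pool of 10 and each cumulus array from 500 cells, so a level is an average over a pool, and a smaller number of expressing cells cannot be told apart from less RNA per cell. Embryos were cultured for 24 h, and every RNA went through 2 rounds of linear amplification before labelling with Cy3 on a 1-colour array. The labels do not say whether the pools of a group were collected separately, so p-values measure the spread between these samples, which may be technical.

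Nuclear receptors are transcription factors that bind DNA through a zinc-finger domain and, in most members, a small lipid-soluble ligand through a second domain. Steroid receptors act largely as homodimers, while retinoid, thyroid hormone, vitamin D and lipid-sensing receptors pair with a retinoid X receptor, and so-called orphan members have no settled ligand. In the mouse, Esrrb, Nr5a2 and Nr6a1 are known for roles in oocytes, early embryos and pluripotent cells, and the 2-cell stage is when the embryo's own genome takes over from the RNA stored in the oocyte.

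The DNA half-site shared by most of these receptors reads AGGTCA, or TGACCT on the other strand. RefSeq promoter windows of GRCm38.p6 were found for 41 of the 45 genes, and in the 250 bases upstream of a start site 9 of the 41 genes held this half-site in at least 1 window (22%), against 15.8% of all 27025 genes in the same table. The GAGGAA core (TTCCTC on the other strand) of the PU box, to which ETS factors of the Spi family bind, was in the windows of 9 of the 41 (22%) against 25.9% of all genes. A match describes these letters only and is no measure of binding. Shown are the 250 upstream bases of a pair of members that were lower than in IVF embryos (Nr1h4 in TSA(-) and Pparg in both TSA groups), a pair that were higher (Nr1h3 and Vdr) and Rxra, the partner of many of them, which was lower by its brighter probe in the arrays labelled Spi-C. For a gene with several start sites the window with most half-sites, then the most upstream, is given, and capitals mark the half-site on either strand. The windows lie at chr10:89506659-89506908, minus strand for Nr1h4, chr6:115360894-115361143, plus strand for Pparg, chr2:91195117-91195366, minus strand for Nr1h3, chr15:97908297-97908546, minus strand for Vdr and chr2:27709042-27709291, plus strand for Rxra, and end at the base before the start site.
Nr1h4: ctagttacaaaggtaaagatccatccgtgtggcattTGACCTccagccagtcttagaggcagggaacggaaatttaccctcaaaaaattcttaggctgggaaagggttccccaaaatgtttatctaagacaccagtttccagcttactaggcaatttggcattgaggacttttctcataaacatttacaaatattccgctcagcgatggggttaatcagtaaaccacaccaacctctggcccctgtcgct
Pparg: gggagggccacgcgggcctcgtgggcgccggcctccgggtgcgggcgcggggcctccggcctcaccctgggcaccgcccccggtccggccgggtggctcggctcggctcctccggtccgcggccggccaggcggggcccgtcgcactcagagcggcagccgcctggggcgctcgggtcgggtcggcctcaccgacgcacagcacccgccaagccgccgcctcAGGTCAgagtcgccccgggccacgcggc
Nr1h3: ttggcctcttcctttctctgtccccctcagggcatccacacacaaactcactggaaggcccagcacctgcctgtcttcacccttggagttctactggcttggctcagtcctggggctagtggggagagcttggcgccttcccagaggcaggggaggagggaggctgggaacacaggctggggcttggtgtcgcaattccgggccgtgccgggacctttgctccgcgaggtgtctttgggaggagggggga
Vdr: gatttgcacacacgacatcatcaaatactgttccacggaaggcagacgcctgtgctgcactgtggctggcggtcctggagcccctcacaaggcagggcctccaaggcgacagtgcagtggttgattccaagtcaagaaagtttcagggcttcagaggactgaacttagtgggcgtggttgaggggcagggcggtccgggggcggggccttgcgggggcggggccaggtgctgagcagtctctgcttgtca
Rxra: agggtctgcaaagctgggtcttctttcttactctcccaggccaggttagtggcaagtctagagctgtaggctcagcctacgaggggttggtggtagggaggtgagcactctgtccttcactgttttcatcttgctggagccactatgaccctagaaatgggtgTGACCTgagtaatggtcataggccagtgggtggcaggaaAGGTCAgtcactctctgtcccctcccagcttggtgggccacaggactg

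The Nr1h4 and Pparg windows each held 1 half-site and the Rxra window held 2, while those of Nr1h3 and Vdr held none.

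A level here is log2 of the processed intensity minus that array's 75th percentile, so 0 is the brightness at that percentile, and levels of different probes were not compared. Between 48.7% and 60.0% of probes were well above background on the oocyte arrays, between 69.6% and 76.3% on the IVF arrays and between 66.9% and 77.6% on the TSA(-) arrays. The median 75th percentile was 373 intensity units in OC and 1071 in IVF, so a spot at background sat higher on the level scale in oocytes than in embryos. Oocyte, IVF, TSA(-) and TSA(+) arrays shared 1 scanner model over 9 slides and 5 scan days, while the Spi-C arrays (2 slides, 1 scan day) and the Cumulus arrays (1 slide, 1 scan day) were read on another model, so in a comparison of either with the rest the scanner and the group cannot be told apart. Levels of marker genes were summed on the linear scale, as intensity over the array's 75th percentile. Summed levels of 7 oocyte marker genes ranged from 2166 to 3633 in OC, from 365 to 677 over the 2-cell groups and from 0.974 to 1.95 in Cumulus. Those of 12 cumulus cell marker genes ranged from 2.99 to 12.1 in oocytes and embryos against 173 to 193 in Cumulus. Of these 12, 9 were higher and 2 lower in Cumulus than in OC (adjusted p under 0.01). Blood cell markers (2 genes) summed to 0.40 to 1.54 in Cumulus, with both above background on every Cumulus array, and to at most 0.27 on any other array. The 2 were higher in Cumulus than in OC (adjusted p under 0.01), and the source of this RNA was not tested. Sperm markers (3 genes) summed to at most 1.86, a value reached in OC. No member spot was saturated.

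Of the 44 members with a probe, 26 were well above background on every oocyte array, 36 on every IVF array, 33 on every TSA(-) array, 35 on every TSA(+) array, 34 and 33 on every Spi-C 1.0 and Spi-C 0.1 array, and 28 on every Cumulus array. Pgr, the progesterone receptor gene, was above background on 1 of the 39 arrays, and Rorb on 2. Nr4a3 was above background on 1 Cumulus array and Nr2f1 on 1 oocyte array. Rxrg and Hnf4g were above background on every array of no group.

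From oocyte to fertilised 2-cell embryo, 29 of the 42 members tested differed (adjusted p under 0.01, limma over all probes), 16 higher and 13 lower in IVF. Over all probes tested 66% passed, 23.3% higher and 42.7% lower, so the members' share that passed (69.0%) was near the background, with 38.1% higher and 31.0% lower. The members' median difference was 0.39 and that of all probes -0.88 on the log2 scale. Centring on array medians instead gave 13 members higher and 17 lower, and the median of all probes was -1.55. Under quantile normalization that median was -0.29 (16 members higher, 13 lower) and under normexp background correction -0.09 (15 higher, 13 lower). The shift of all probes thus depended on the scaling. In 23 of the 29 the OC and IVF arrays did not overlap. How many of all probes did so was not counted, so this number does not set the members apart.

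**Figure D1:**
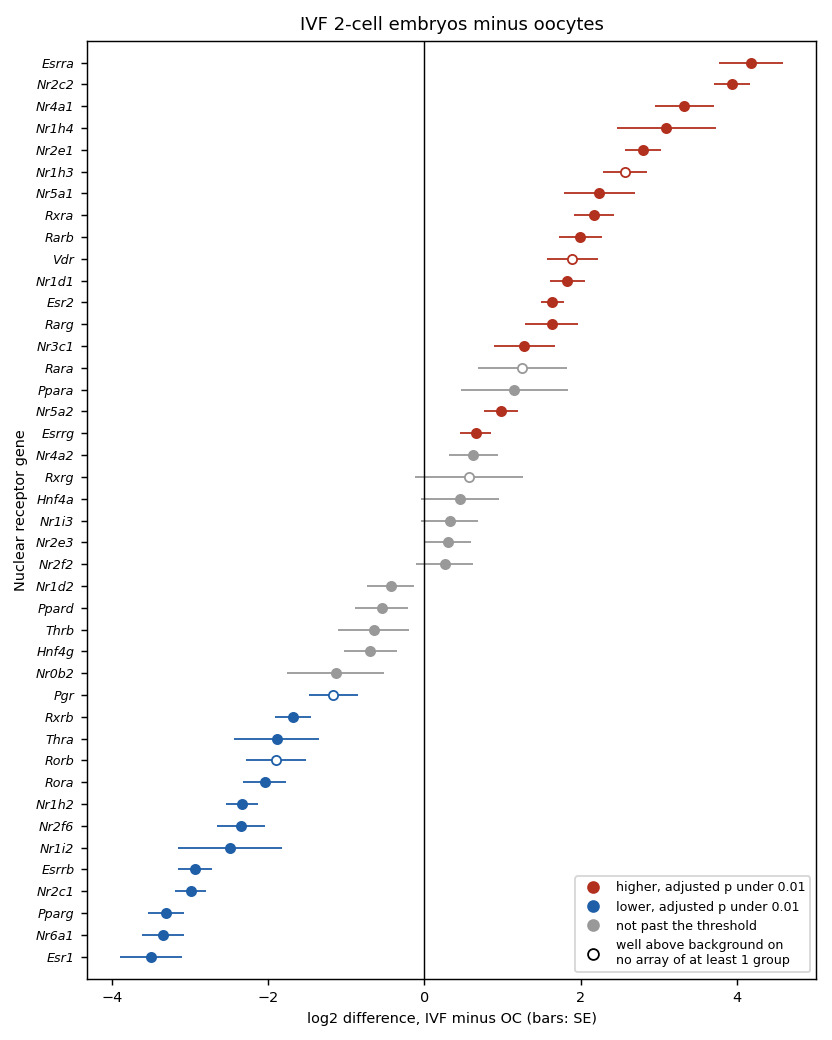
Difference in log2 level between IVF 2-cell embryos and oocytes (x axis, IVF minus OC, bars 1 SE) for the 42 members tested (y axis), in order of size. Red and blue points passed the threshold and grey ones did not, and open points mark members well above background on no array of at least 1 of the groups. Esrra and Nr2c2 stand at the top and Esr1 and Nr6a1 at the bottom.

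Among the steroid hormone receptors, Esr1 and Esr2, which encode the estrogen receptors alpha and beta, moved apart. Here and below a group of more than 5 arrays is given by its median level, with the lowest and highest in parentheses. Esr1 had 1.43 (0.79 to 1.88) in OC and -2.03 (-3.22 to -1.34) in IVF. Every oocyte array lay above every IVF array, a difference of -3.50 ± 0.40 (SE, adjusted p = 5.40e-09). Esr2 stood at -0.33 (-0.80 to -0.05) in OC and at 1.26 (1.06 to 1.35) in IVF, again without overlap but in the other direction (1.64 ± 0.15, SE, adjusted p = 6.35e-11). A further probe of Esr1 rose by 1.00 (adjusted p = 0.00113), so the direction for Esr1 belongs to its brighter probe. Nr3c1, the glucocorticoid receptor gene, was higher by 1.28 ± 0.39 (SE, adjusted p = 0.00467) with overlapping arrays. Another of its probes was higher too (2.98, adjusted p = 0.000157), and a further one did not pass (-0.66, adjusted p = 0.0574). The call on the brightest probe was lost under 5 of 14 other settings and without OC replicate 2 or 6 or IVF replicate 1, 3 or 5 (adjusted p from 0.0117 to 0.0177). Pgr was called lower but was above background on 0 of 7 oocyte and 1 of 6 IVF arrays, so no fold is given.

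The estrogen-related receptors, orphan relatives of the estrogen receptors that act in energy metabolism and, for Esrrb, in the pluripotency network, also divided. Esrra gave the largest rise of any member. Its levels were -5.91 (-6.97 to -3.03) in OC, where 3 of 7 arrays were well above background, and -1.30 (-1.92 to -0.91) in IVF. All IVF arrays exceeded all oocyte arrays, and the mean difference was 4.18 ± 0.41 (SE, adjusted p = 3.16e-10), which is 18.1-fold. Esrrb ran the other way, from 3.80 (3.66 to 4.43) in OC to 0.96 (0.63 to 1.39) in IVF, a fall with no overlap (-2.94 ± 0.22, SE, adjusted p = 4.34e-13). Esrrg was higher by 0.65 ± 0.20 (SE, adjusted p = 0.00515) with overlap, and its sign turned (-0.02) when arrays were centred on their medians. The Esrrg call was also lost with a mean over its probes, by the Tukey test and with slide or scan day as a fixed term. It was lost too without OC replicate 4 or 6 or IVF replicate 5 or 6 (adjusted p from 0.0124 to 0.0168). On 1 of 2 slides shared by OC and IVF, Esrrg was lower in IVF (-0.26).

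Of the retinoid receptors, which bind retinoic acid (RAR) or act as the shared partner (RXR), Rxra, Rarb and Rarg were higher in IVF and Rxrb was lower. Rxra had levels of -0.02 (-1.81 to 0.60) in OC and 1.73 (1.43 to 2.16) in IVF, a rise of 2.18 ± 0.26 (SE, adjusted p = 1.13e-08) without overlap, and its other probe rose as well (1.42, adjusted p = 2.54e-06). Rarb rose by 1.99 ± 0.27 (SE, adjusted p = 1.73e-07) and Rarg by 1.63 ± 0.33 (SE, adjusted p = 8.11e-05), while Rxrb differed by -1.69 ± 0.23 (SE, adjusted p = 1.72e-07). The other Rxrb probe did not pass (0.44, adjusted p = 0.409), and the Rxrb call was lost with a mean over both probes (-0.63, adjusted p = 0.0458). Rara and Rxrg, above background on no oocyte array and on 4 and 3 of 6 IVF arrays, did not pass.

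Vdr, the vitamin D receptor gene, was above background on 0 of 7 oocyte arrays and on 6 of 6 IVF arrays, with measured means of -6.90 ± 0.60 and -5.01 ± 0.48 (SD), at least 3.70-fold higher in IVF (adjusted p = 6.58e-06). Such a bound sets the brighter group's mean against, on each dim array, the weakest probe called well above background or the probe's own level, whichever was higher. Thra, which encodes a thyroid hormone receptor, was lower with overlap (a difference of -1.89 ± 0.55, SE, adjusted p = 0.00284), and its other probe did not pass (-0.92, adjusted p = 0.113). The Thra call was lost under quantile normalization (-1.27, adjusted p = 0.0254), with a mean over both probes (-1.41, adjusted p = 0.0122) and by the Tukey test. For Thrb, which encodes the other thyroid hormone receptor, the brighter probe did not pass (-0.65, adjusted p = 0.199) and the other was lower in IVF (-1.70, adjusted p = 0.0024).

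The lipid, bile acid and xenobiotic sensors gave 2 rises and 3 falls among 8 genes. Nr1h4 encodes FXR, the bile acid receptor, and its levels were -5.69 (-6.60 to -3.45) in OC (2 of 7 arrays above background) and -2.25 (-2.96 to -1.77) in IVF, higher by 3.10 ± 0.63 (SE, adjusted p = 7.55e-05). Nr1h3 and Nr1h2 encode the oxysterol receptors LXR alpha and LXR beta and moved in opposite directions. Nr1h3 was above background on 0 of 7 oocyte arrays, with means of -5.74 ± 0.43 in OC and -3.17 ± 0.77 in IVF, at least 5.93-fold higher (adjusted p = 3.91e-09), whereas Nr1h2 fell from 1.35 (0.71 to 2.15) to -0.93 (-1.25 to -0.74) (-2.34 ± 0.21, SE, adjusted p = 3.35e-11). Pparg, the fatty acid receptor known from adipocytes, stood at 4.52 (3.93 to 5.22) in OC and at 1.27 (1.08 to 1.46) in IVF. Its arrays did not overlap either, and the difference was -3.31 ± 0.23 (SE, adjusted p = 1.11e-13). Nr1i2, which encodes the xenobiotic receptor PXR, had levels of -2.73 (-4.36 to -0.52) and -4.89 (-5.48 to -4.61), a difference of -2.49 ± 0.66 (SE, adjusted p = 0.00143) without overlap. The Nr1i2 call was lost by the Tukey test and with slide as a fixed term (-2.69, adjusted p = 0.0183). Ppara, Ppard and Nr1i3 did not pass.

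The orphan receptors held some of the clearest changes. Nr2c1 and Nr2c2 encode the paired testicular receptors TR2 and TR4 and moved in opposite directions. Nr2c1 fell from 3.52 (2.80 to 3.87) to 0.41 (0.17 to 0.66) (-3.00 ± 0.20, SE, adjusted p = 4.35e-14) and Nr2c2 rose from -2.30 (-3.31 to -1.78) to 1.60 (1.01 to 1.88) (3.94 ± 0.23, SE, adjusted p = 1.70e-15), neither with any overlap. Nr2e1, which encodes the neural stem cell factor TLX, rose from -1.05 (-2.52 to -0.61) to 1.65 (1.11 to 1.77) (2.80 ± 0.23, SE, adjusted p = 6.50e-12). Nr2f6 fell from -0.55 (-1.30 to 0.03) to -3.31 (-3.73 to -1.50) (-2.35 ± 0.31, SE, adjusted p = 8.31e-08), and neither Nr2e3 nor Nr2f2 passed. Nr4a1, an immediate-early gene, went from -4.68 (-5.09 to -3.66) to -1.26 (-1.66 to -0.61). That was a rise of 3.33 ± 0.38 (SE, adjusted p = 6.46e-09) without overlap, and its relative Nr4a2 did not pass (0.63, adjusted p = 0.0681).

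In the NR5A and NR6A group, Nr6a1, which encodes germ cell nuclear factor, fell from 5.15 (4.32 to 5.97) in OC to 2.00 (0.72 to 2.46) in IVF (-3.35 ± 0.27, SE, adjusted p = 5.37e-12). Nr5a1, the gene of the steroidogenic factor SF-1, rose from -4.56 (-5.26 to -4.02) to -2.46 (-3.83 to -1.58) without overlap (2.24 ± 0.45, SE, adjusted p = 6.28e-05), and was above background on 4 of 7 oocyte arrays. Nr5a2 rose less (0.98 ± 0.22, SE, adjusted p = 0.000194), with overlap, and the call was lost on centring by array medians (0.30, adjusted p = 0.236) and with slide as a fixed term. Of the clock-linked receptors, Rora fell with a difference of -2.04 ± 0.28 (SE, adjusted p = 1.51e-07) and Nr1d1 rose by 1.83 ± 0.22 (SE, adjusted p = 2.29e-08), but another Nr1d1 probe differed by -1.24 (adjusted p = 1.62e-07). Rorb was called lower while above background on no array of either group, so it has no readable change. Nr1d2, Hnf4g and Nr0b2 did not pass. Hnf4a did not pass on its brightest probe (0.45, adjusted p = 0.414), while its other 2 probes were lower in IVF (-1.37, adjusted p = 4.41e-06, and -2.35, adjusted p = 0.00122).

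OC and IVF arrays shared 4 scan days. On all 4 days 27 of the 29 called members differed in the called direction, and the exceptions were Nr3c1 and Pgr.

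**Figure D2:**
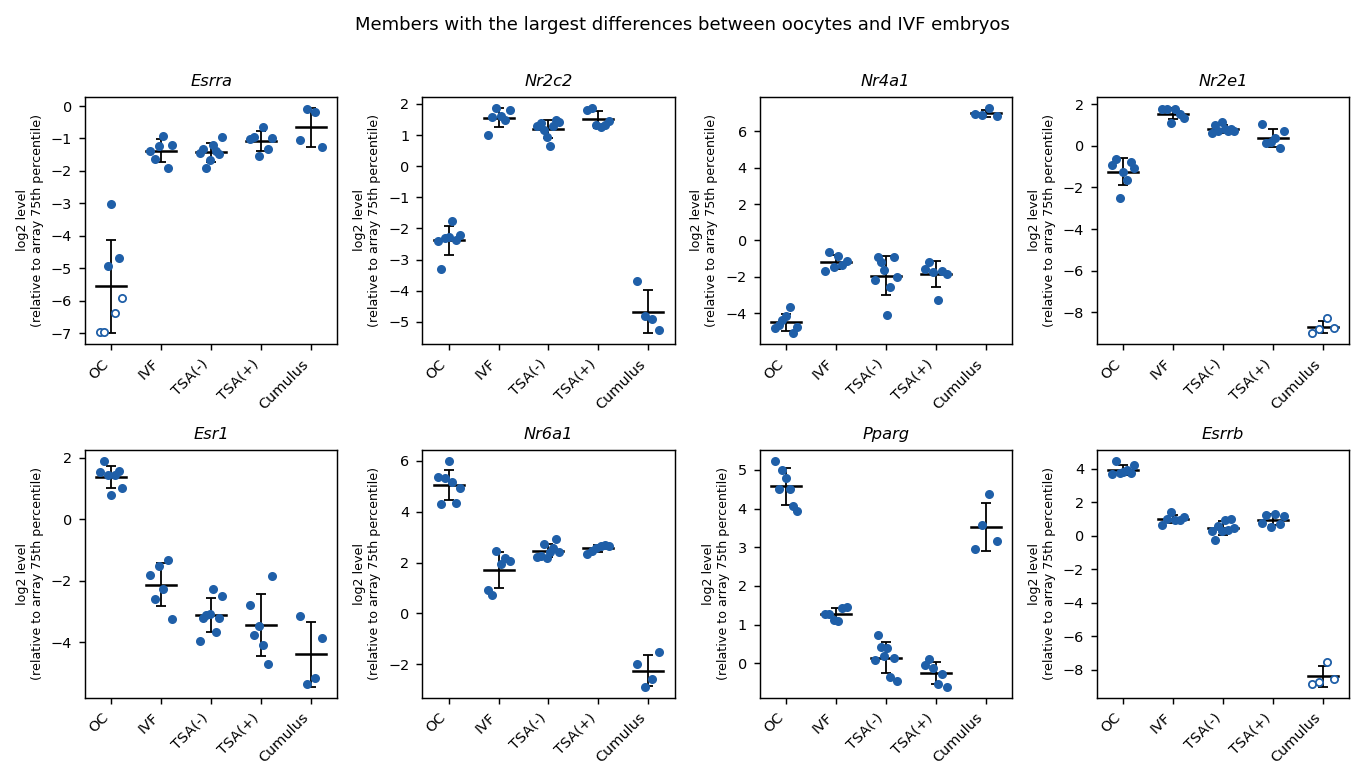
Log2 level (y axis, relative to the array's 75th percentile) on every array of OC, IVF, TSA(-), TSA(+) and Cumulus (x axis) for 4 members with large rises and 4 with large falls from OC to IVF. Points are arrays, open where the spot was not well above background, and bars are the mean and SD. The panels show Esrra, Nr2c2, Nr4a1, Nr2e1, Esr1, Nr6a1, Pparg and Esrrb. In each panel the OC and IVF points do not overlap, and the means of TSA(-) and TSA(+) lie nearer to the IVF mean than to the OC mean. Single clone arrays of Nr4a1 and Nr2e1 lie nearer to OC.

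Between untreated clones and IVF embryos 6 of 42 members differed (14.3%), 2 higher and 4 lower, against 18.8% of all probes, 8.49% higher and 10.3% lower. For TSA(+) against IVF 6 members also passed, 2 higher and 4 lower, against 18.9% of all probes (7.83% higher, 11.1% lower). The members' shares were lower than those of all probes, but with only 6 called in each this does not set the members apart. The median difference of the members was -0.22 for TSA(-) (all probes -0.05) and -0.47 for TSA(+) (all probes -0.23). These comparisons share the IVF arrays, so their values are given side by side for each gene and not as 2 separate findings.

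Esr2 was lower in both kinds of clone. Its levels were 1.26 (1.06 to 1.35) in IVF, 0.16 (-0.06 to 0.36) in TSA(-) and -0.13 (-0.44 to 0.54) in TSA(+), and no clone array reached the lowest IVF array. The difference from IVF was -1.06 ± 0.15 (SE, adjusted p = 1.88e-06) in TSA(-) and -1.28 ± 0.16 (SE, adjusted p = 3.12e-07) in TSA(+). The SD between arrays was 0.12 in IVF, 0.13 in TSA(-) and 0.33 in TSA(+), so the differences were larger than the replicate spread.

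Nr2e3, which encodes a photoreceptor-specific receptor, stood at 0.67 (0.31 to 0.91) in IVF, -0.98 (-2.0 to 0.00) in TSA(-) and -1.22 (-1.37 to -0.87) in TSA(+). Clones were lower without overlap, with differences of -1.66 ± 0.29 (SE, adjusted p = 4.78e-05) and -1.82 ± 0.31 (SE, adjusted p = 3.58e-05). Pparg continued below its IVF level, with 0.15 (-0.45 to 0.74) in TSA(-) and -0.21 (-0.60 to 0.11) in TSA(+) against 1.27 (1.08 to 1.46) in IVF, differences of -1.13 ± 0.22 (SE, adjusted p = 0.000244) and -1.52 ± 0.24 (SE, adjusted p = 1.35e-05).

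The bile acid receptor gene Nr1h4 spread widely among the untreated clones. TSA(-) arrays ran from -7.74 over a median of -4.57 to -2.67, with 6 of 8 above background, against -2.25 (-2.96 to -1.77) in IVF and -3.01 (-3.84 to -2.28) in TSA(+). The TSA(-) mean differed from the IVF mean by -2.68 ± 0.61 (SE, adjusted p = 0.00126), but 2 TSA(-) arrays lay within the IVF range. TSA(+) did not pass against IVF (-0.77, adjusted p = 0.412), and the difference between the clone groups themselves did not pass either. With slide as a fixed term the TSA(-) difference was -2.73 (adjusted p = 0.0142).

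Nr2e1 passed in TSA(+) only. Its levels were 1.65 (1.11 to 1.77) in IVF, 0.76 (0.61 to 1.12) in TSA(-) and 0.26 (-0.10 to 1.06) in TSA(+). The difference from IVF was -1.17 ± 0.24 (SE, adjusted p = 0.000433) in TSA(+), without overlap, and -0.74 ± 0.22 (SE, adjusted p = 0.0129) in TSA(-). The direct difference between TSA(+) and TSA(-) was -0.42 (adjusted p = 0.355), so the clone groups were not shown to differ in this gene.

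Vdr and Nr1h3 were the members higher in clones. Vdr stood at -4.88 (-5.84 to -4.56) in IVF, -3.59 (-4.30 to -2.75) in TSA(-) and -2.69 (-4.07 to -2.06) in TSA(+), and every clone array lay above every IVF array. The differences were 1.49 ± 0.31 (SE, adjusted p = 0.000545) and 2.09 ± 0.34 (SE, adjusted p = 2.02e-05). Nr1h3 stood at -3.22 (-4.11 to -1.97) in IVF, -1.93 (-2.43 to -1.08) in TSA(-) and -1.20 (-2.14 to -1.14) in TSA(+), higher by 1.29 ± 0.28 (SE, adjusted p = 0.000721) and 1.78 ± 0.30 (SE, adjusted p = 3.50e-05) with the highest IVF array inside the clones' range. With slide as a fixed term the TSA(-) calls were lost for Vdr (1.37, adjusted p = 0.0379) and Nr1h3 (1.10, adjusted p = 0.0522), while the TSA(+) calls held. Within the 4 scan days shared by TSA(-) and IVF, Vdr was higher on all 4 (0.71 to 2.49) and Nr1h3 on 3 of 4 (-0.01 to 2.09).

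Vdr and Nr1h3 were both above background on all 4 donor cell arrays, with Cumulus levels of -2.67, -2.24, -2.42 and -2.68 for Vdr and -3.21, -2.31, -2.35 and -2.84 for Nr1h3. Summed levels of the 12 cumulus cell markers were 5.21 to 8.98 in IVF, 4.86 to 9.12 in TSA(-) and 8.86 to 12.1 in TSA(+), and each of the 12 was above background on every Cumulus array, against 6 in IVF, 5 in TSA(-) and 6 in TSA(+), where 1 was above background on none. Those of 5 genes that mark 2-cell embryos were 157 to 211 in IVF, 36.5 to 112 in TSA(-) and 59.0 to 127 in TSA(+), lower in clones without overlap. The 7 oocyte markers summed to 613 to 677 in IVF, 522 to 611 in TSA(-) and 452 to 520 in TSA(+), again without overlap. Of these 7, only 1 was lower and 0 were higher than in IVF in each clone group (adjusted p under 0.01). Of the 5 2-cell markers, 5 were lower in TSA(-) and 3 in TSA(+), and none was higher. Of the 12 cumulus cell markers, 0 were higher and 1 lower in TSA(-), and 1 was higher and 1 lower in TSA(+). Their part in the result was not tested.

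**Figure D3:**
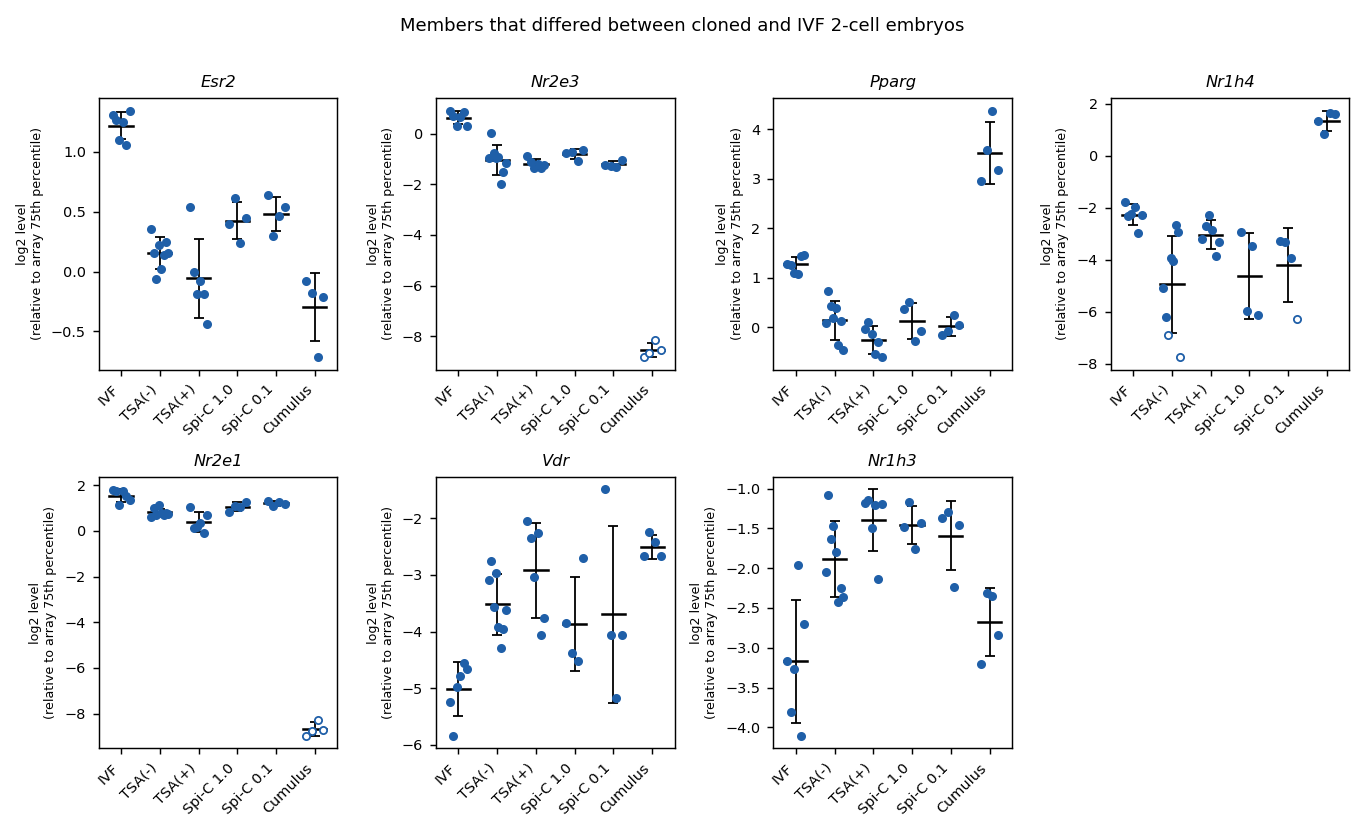
Log2 level (y axis, relative to the array's 75th percentile) on every array of the 2-cell groups and Cumulus (x axis) for the 7 members that passed against IVF in TSA(-) or TSA(+). Points are arrays, open where not well above background, with the mean and SD. Esr2, Nr2e3 and Pparg lie below IVF in each clone group and Vdr lies above it in TSA(-) and TSA(+).

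No member passed between TSA(+) and TSA(-) in limma, where 0.139% of all probes passed (0.0455% higher, 0.0936% lower), and none passed by the Tukey test of the study's methods. At an unadjusted p under 0.05 there were 5 members. The 3 with the lowest p were Nr1h4, Nr5a1 and Esrrb. Nr1h4, with the levels given above, was higher in TSA(+) by 1.91 ± 0.61 (SE, adjusted p = 0.106). Nr5a1 levels were -1.86 (-4.41 to -0.94) in TSA(-) and -3.57 (-4.37 to -2.12) in TSA(+), a difference of -1.30 ± 0.44 (SE, adjusted p = 0.125). Esrrb levels were 0.38 (-0.28 to 1.00) and 0.98 (0.52 to 1.32), a difference of 0.51 ± 0.21 (SE, adjusted p = 0.212). In all 3 the arrays of the groups overlapped. The shared scan days gave Nr1h4 higher on 3 of 3, Nr5a1 lower on 2 of 3 and Esrrb higher on 2 of 3.

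The injected message was checked first. On the brighter of its 2 probes Spic read 1.44, 1.79, 1.66 and 1.13 on the arrays labelled Spi-C 1.0 and 1.68, 1.55, 1.61 and 1.57 on those labelled Spi-C 0.1, against 2.08 (1.63 to 2.57) in TSA(-). The injected groups were thus not higher than uninjected clones (-0.58, adjusted p = 0.0228 for Spi-C 1.0 and -0.48, adjusted p = 0.06 for Spi-C 0.1), and the other probe gave the same signs. Whether the probes lie within the injected message is not stated in the sources used here, so the groups are named only as labelled. Since scanner model and group coincide here, they cannot be told apart in these differences.

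Against TSA(-), 4 of 42 members differed in the arrays labelled Spi-C 1.0 (9.52%), 1 higher and 3 lower, where 14.2% of all probes passed (7.79% higher, 6.43% lower). In those labelled Spi-C 0.1 there were 3 (7.14%), 1 higher and 2 lower, where 13.7% of all probes passed (7.2% higher, 6.53% lower). With only 4 and 3 members called, shares under the background do not set the members apart, and the 2 comparisons share the TSA(-) arrays. Of the 12 cumulus cell markers 1 was higher and 0 were lower than in TSA(-) in each Spi-C group. Their summed levels were 5.43 to 6.73 in Spi-C 1.0 and 6.85 to 7.92 in Spi-C 0.1, within the TSA(-) range given above. Those of the 7 oocyte markers were 377 to 447 and 365 to 426, below the 522 to 611 of TSA(-) without overlap, with 1 gene higher and 2 lower in Spi-C 1.0 and 1 higher and 3 lower in Spi-C 0.1. Of 3 sperm markers 1 was higher in each. Their part in the results was not tested.

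Nr5a1 was the 1 member higher in both. Its levels were -0.52, 0.27, 0.40 and 0.51 in Spi-C 1.0 and 0.43, -0.52, 0.58 and 0.11 in Spi-C 0.1, against -1.86 (-4.41 to -0.94) in TSA(-). Every injected array lay above every TSA(-) array, and the mean differences were 2.29 ± 0.51 (SE, adjusted p = 0.00164) and 2.27 ± 0.51 (SE, adjusted p = 0.00172). They also lay above all IVF arrays, at -2.46 (-3.83 to -1.58), and above all Cumulus arrays, at -2.39, -2.54, -3.93 and -2.93. Neither of these comparisons was tested.

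Esrra and Rxra were lower in both. Esrra read -2.16, -2.47, -2.53 and -2.33 in Spi-C 1.0 and -2.21, -2.38, -2.39 and -2.06 in Spi-C 0.1, against -1.42 (-1.91 to -0.95) in TSA(-), differences of -0.95 ± 0.18 (SE, adjusted p = 0.00034) and -0.84 ± 0.18 (SE, adjusted p = 0.00121) without overlap. Rxra read 0.58, 0.63, 0.70 and 0.82 in Spi-C 1.0 and 0.42, 0.88, 0.89 and 0.54 in Spi-C 0.1, against 1.51 (1.30 to 2.02) in TSA(-), again without overlap (-0.93 ± 0.15, SE, adjusted p = 6.14e-05, and -0.93 ± 0.15, SE, adjusted p = 6.04e-05). The other Rxra probe moved the opposite way, by 0.61 (adjusted p = 0.0429) and 1.01 (adjusted p = 0.00138), so the direction for Rxra depends on the probe. With all 7 groups in 1 fit neither gene passed, at adjusted p of 0.113 and 0.178 for Esrra and 0.0102 and 0.0105 for Rxra.

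Esrrb passed in Spi-C 1.0 alone, with levels of -0.10, -0.44, -0.23 and -0.66 against 0.38 (-0.28 to 1.00) in TSA(-) and a difference of -0.81 ± 0.20 (SE, adjusted p = 0.00407). The arrays overlapped, and the call was lost without Spi-C 1.0 replicate 2 (-0.78, adjusted p = 0.0164) or replicate 4 (-0.70, adjusted p = 0.0264). In Spi-C 0.1 the levels were -0.46, -0.10, -0.04 and -0.02, a difference of -0.60 ± 0.20 (SE, adjusted p = 0.0296). The direct difference between the doses did not pass (-0.20, adjusted p = 1).

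On probes other than the brightest, Esrrg, Hnf4a and Nr1d1 each had 1 probe called higher in both injected groups, by 1.12, 1.25 and 1.08 in Spi-C 1.0. In the clone comparisons another probe of Rxra was lower in TSA(-) than in IVF (-0.77, adjusted p = 0.00871) and another of Esr1 lower in TSA(+) (-1.34, adjusted p = 0.000373).

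Between the doses no member passed in limma or by the Tukey test, where 0.00506% of all probes passed (0.00506% higher, 0% lower), and 1 member had an unadjusted p under 0.05. The 3 with the lowest p were Thrb, Rarb and Nr4a2. Thrb read -4.50, -4.74, -3.75 and -2.99 in Spi-C 1.0 and -2.03, -3.51, -2.82 and -2.41 in Spi-C 0.1 (-1.30 ± 0.59, SE, adjusted p = 1). Rarb read -0.49, -0.65, -0.49 and -0.38 in Spi-C 1.0 and -0.87, -1.26, -0.76 and -0.93 in Spi-C 0.1 (0.45 ± 0.22, SE, adjusted p = 1), the only one of the 3 without overlap. Nr4a2 read -3.37, -3.39, -3.08 and -3.11 in Spi-C 1.0 and -1.72, -2.56, -3.18 and -3.30 in Spi-C 0.1 (-0.55 ± 0.31, SE, adjusted p = 1). The doses shared 2 slides, on which Thrb was lower and Rarb higher in Spi-C 1.0 on both and Nr4a2 differed in sign.

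**Figure D4:**
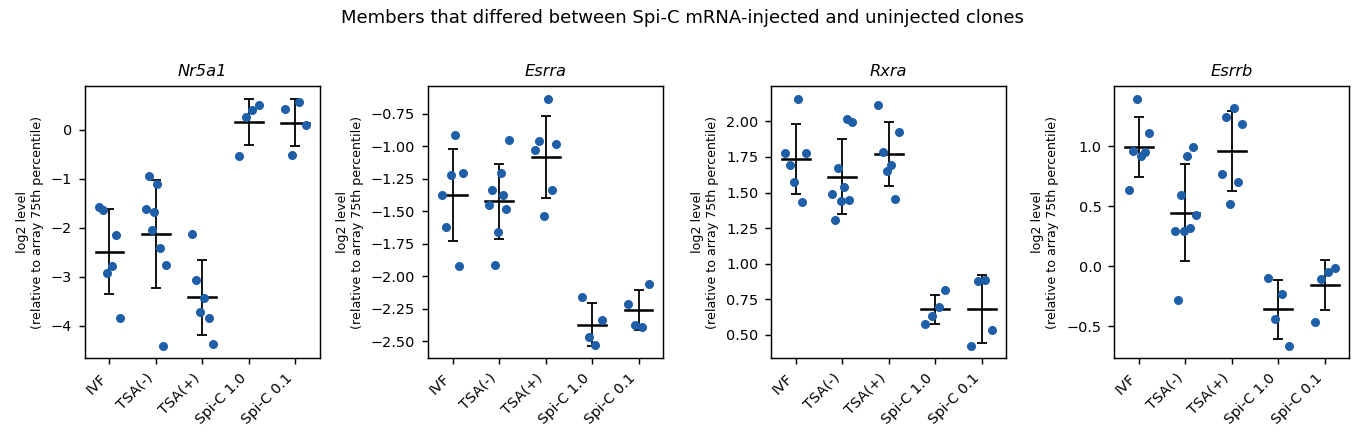
Log2 level (y axis, relative to the array's 75th percentile) on every array of IVF, TSA(-), TSA(+) and the groups labelled Spi-C 1.0 and Spi-C 0.1 (x axis) for the 4 members that passed in an injected group. Points are arrays with the mean and SD. Nr5a1 lies above all TSA(-) arrays and Esrra and Rxra lie below them in both injected groups, while Esrrb overlaps.

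Donor cells and oocytes differed in 32 of 42 members (76.2%), 13 higher and 19 lower in Cumulus, against 67.8% of all probes (23.4% higher, 44.4% lower). Untreated clones differed from the donor cells in 25 members (59.5%), 15 higher and 10 lower in TSA(-), against 54.9% of all probes (30.5% higher, 24.5% lower). Centring on array medians made the latter split 10 higher and 19 lower, and moved the median of all probes from 0.11 to -0.76. Quantile normalization and normexp background correction each gave 13 higher and 12 lower, with medians of all probes of -0.10 and -0.01. The scanner, slide and scan day of the Cumulus arrays cannot be told apart from the cell type in either comparison.

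Some orphan receptors of the oocyte and embryo were at background in the donor cells. Esrrb, Esrrg, Nr2e1 and Nr2e3 were above background on none of the 4 Cumulus arrays. Esrrb had a mean of 3.93 ± 0.29 (SD) in OC, 0.45 ± 0.41 in TSA(-) and -8.41 ± 0.60 in Cumulus, at least 5201-fold lower in Cumulus than in OC (adjusted p = 3.54e-27) and at least 465-fold higher in TSA(-) than in Cumulus (adjusted p = 1.44e-23). For Esrrg the means were 0.74 ± 0.50, 1.34 ± 0.31 and -8.55 ± 0.28 in the same order, with bounds of at least 623-fold (adjusted p = 9.56e-25) and 947-fold (adjusted p = 2.28e-25). The other Esrrg probe differed far less, by -1.18 for Cumulus minus OC (adjusted p = 0.000762) and 1.04 for TSA(-) minus Cumulus (adjusted p = 0.00235), so the bounds for Esrrg rest on 1 of its 2 probes.

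Nr2e1 had means of -1.25 ± 0.65 in OC, 0.81 ± 0.17 in TSA(-) and -8.68 ± 0.30 in Cumulus, at least 169-fold lower in Cumulus than in OC (adjusted p = 5.05e-21) and at least 702-fold higher in TSA(-) (adjusted p = 1.64e-23). Nr2e3 had means of 0.32 ± 0.84, -1.04 ± 0.58 and -8.55 ± 0.28, with bounds of 468-fold (adjusted p = 2.42e-20) and 182-fold (adjusted p = 1.99e-18). On these probes the 4 genes were below detection in the donor cells and at readable levels on all 8 untreated clone arrays. No OC, IVF or clone array overlapped the Cumulus arrays in any of them.

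Nr6a1, Rarb and Nr2c2 were above background on all 4 donor cell arrays, and Ppara on 3 of 4, but these 4 genes were higher in clones. Nr6a1 read -2.0, -2.88, -2.59 and -1.53 in Cumulus against 2.41 (2.18 to 2.91) in TSA(-) (4.71 ± 0.30, SE, adjusted p = 2.30e-14) and differed from OC by -7.31 ± 0.31 (SE, adjusted p = 4.87e-19). Rarb read -7.71, -6.57, -5.45 and -6.14 in Cumulus and -0.50 (-0.95 to -0.06) in TSA(-) (5.96 ± 0.30, SE, adjusted p = 8.01e-17). Its difference from OC was -4.12 ± 0.31 (SE, adjusted p = 4.32e-13). Nr2c2 read -3.68, -4.81, -4.92 and -5.27 in Cumulus against 1.29 (0.64 to 1.5) in TSA(-) (5.88 ± 0.25, SE, adjusted p = 1.34e-18), and Ppara -8.87, -5.93, -5.12 and -8.53 against -1.69 (-3.24 to -0.69) (5.42 ± 0.76, SE, adjusted p = 2.60e-07). Esr1 and Thra were lower in Cumulus than in OC without overlap, with differences of -5.75 ± 0.45 (SE, adjusted p = 1.19e-12) and -4.78 ± 0.61 (SE, adjusted p = 4.85e-08). Their Cumulus levels were -3.13, -5.33, -5.17 and -3.87 for Esr1 and -1.16, -1.68, -5.09 and -2.15 for Thra, and the OC levels were 1.43 (0.79 to 1.88) and 2.44 (0.74 to 3.92).

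Of the receptors higher in the donor cells, Nr4a1, the immediate-early orphan receptor gene, differed most. It read 6.93, 6.90, 7.29 and 6.87 in Cumulus, -4.68 (-5.09 to -3.66) in OC and -1.83 (-4.11 to -0.91) in TSA(-). Cumulus exceeded OC by 11.51 ± 0.43 (SE, adjusted p = 2.37e-20), and TSA(-) differed from Cumulus by -8.94 ± 0.42 (SE, adjusted p = 1.51e-17). Nr1h4 read 1.33, 0.83, 1.67 and 1.62 in Cumulus, higher than OC by 6.71 ± 0.71 (SE, adjusted p = 1.04e-09), and TSA(-) differed from it by -6.30 ± 0.70 (SE, adjusted p = 3.31e-09). Both genes thus had their highest level of any group in the donor cells and were far lower in clones.

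The COUP-TF family genes Nr2f2 and Nr2f6 were also higher in the donor cells than in OC or TSA(-). Nr2f6 read 2.16, 3.03, 3.11 and 2.06 in Cumulus against -0.55 (-1.30 to 0.03) in OC and -3.09 (-3.62 to -2.39) in TSA(-), with 3.25 ± 0.35 (SE, adjusted p = 1.27e-09) for Cumulus minus OC and -5.69 ± 0.34 (SE, adjusted p = 4.39e-15) for TSA(-) minus Cumulus. Nr2f2 read 0.08, -0.73, -0.62 and 0.22 in Cumulus against -3.97 (-4.58 to -2.87) and -3.60 (-5.95 to -3.19), with 3.57 ± 0.41 (SE, adjusted p = 4.78e-09) and -3.62 ± 0.40 (SE, adjusted p = 3.02e-09). Rxrb, Pparg, Nr4a2 and Nr1d2 were also lower in TSA(-) than in the donor cells without overlap, with differences of -3.31, -3.38, -2.57 and -1.58, at adjusted p of 1.38e-12, 6.63e-13, 1.05e-07 and 0.000112. Their Cumulus levels were 2.44, 2.46, 1.78 and 1.87 for Rxrb, 2.96, 3.58, 4.38 and 3.17 for Pparg, 0.16, 0.31, 0.92 and -0.44 for Nr4a2 and 2.68, 2.44, 2.08 and 2.68 for Nr1d2.

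Esrra, Vdr, Nr1h3 and Rxra were higher in Cumulus than in OC and did not pass between TSA(-) and Cumulus. Esrra read -1.05, -0.09, -0.20 and -1.27 in Cumulus, higher than OC by 4.90 ± 0.47 (SE, adjusted p = 1.01e-10), and TSA(-) differed from Cumulus by -0.77 (adjusted p = 0.146). Vdr was at least 21.0-fold higher in Cumulus than in OC (means -2.50 ± 0.21 and -6.90 ± 0.60, adjusted p = 4.83e-12), and TSA(-) differed from Cumulus by -1.02 (adjusted p = 0.0141). For Nr1h3 the bound was 8.34-fold (means -2.68 ± 0.43 and -5.74 ± 0.43, adjusted p = 9.74e-10) and the difference 0.79 (adjusted p = 0.0299). Rxra read 2.26, 2.12, 1.94 and 2.33 in Cumulus, 2.60 ± 0.29 (SE, adjusted p = 2.72e-09) above OC, with -0.55 (adjusted p = 0.0918) for TSA(-) minus Cumulus. The other Rxra probe did not pass between Cumulus and OC (0.07, adjusted p = 0.794). A p that misses the threshold does not show equal levels.

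Of the other members, Nr1i2, Nr1i3, Nr2c1, Nr1h2, Rora, Ppard, Ppara, Nr2c2, Hnf4a and Pparg were called lower in Cumulus than in OC, with log2 differences from -3.64 to -1.05, and Nr5a2, Nr5a1, Nr1d2, Rxrb and Nr4a2 higher by 1.18 to 2.54. The sign for Pparg turned (0.29 and 0.20) under quantile normalization and under normexp background correction. The calls of Nr1i3 and Ppard were lost under both of these, and those of Ppard, Nr1d2 and Nr5a1 by the Tukey test. Nr1i3 was above background on 4 of 7 oocyte and 1 of 4 Cumulus arrays, and Ppard on 4 of 7 and 2 of 4. Pgr was called but lay below background in both groups. Rara, Hnf4a, Thra, Nr1i3, Nr3c1, Rarg and Nr1d1 were higher in TSA(-) than in Cumulus by 1.01 to 3.73, with Rara above background on 0 of 4 Cumulus arrays, and Nr1h2 and Nr5a2 differed by -0.81 and -0.75. Other probes of Hnf4a and Nr1d1 were called in the opposite direction in that comparison, and another probe of Esr1 was higher in TSA(-) (4.52, adjusted p = 1.99e-14). On centring by array medians the calls against Cumulus were lost for Nr1d1 (0.14, adjusted p = 0.625), Rarg (0.87, adjusted p = 0.0304), Rara (1.45, adjusted p = 0.0373), Nr3c1 (1.15, adjusted p = 0.0159) and Thra (1.61, adjusted p = 0.0168). Those of Nr1d1 and Rarg were also lost under quantile normalization (0.28 and 0.77) and normexp (0.22 and 0.48), and that of Rara by the Tukey test. Against OC the calls of Nr1d2, Nr5a1 and Ppard were lost without Cumulus replicate 1 (adjusted p = 0.0101, 0.0132 and 0.012), and that of Nr5a1 also without Cumulus replicate 2 (adjusted p = 0.0113). Against TSA(-) the call of Thra was lost without Cumulus replicate 3 (adjusted p = 0.0131), that of Nr1h2 without Cumulus replicate 2 or 3 (adjusted p = 0.0226 and 0.0185) and that of Nr5a2 without TSA(-) replicate 4, 5 or 6 or Cumulus replicate 1, 3 or 4 (adjusted p from 0.0104 to 0.0251).

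**Figure D5:**
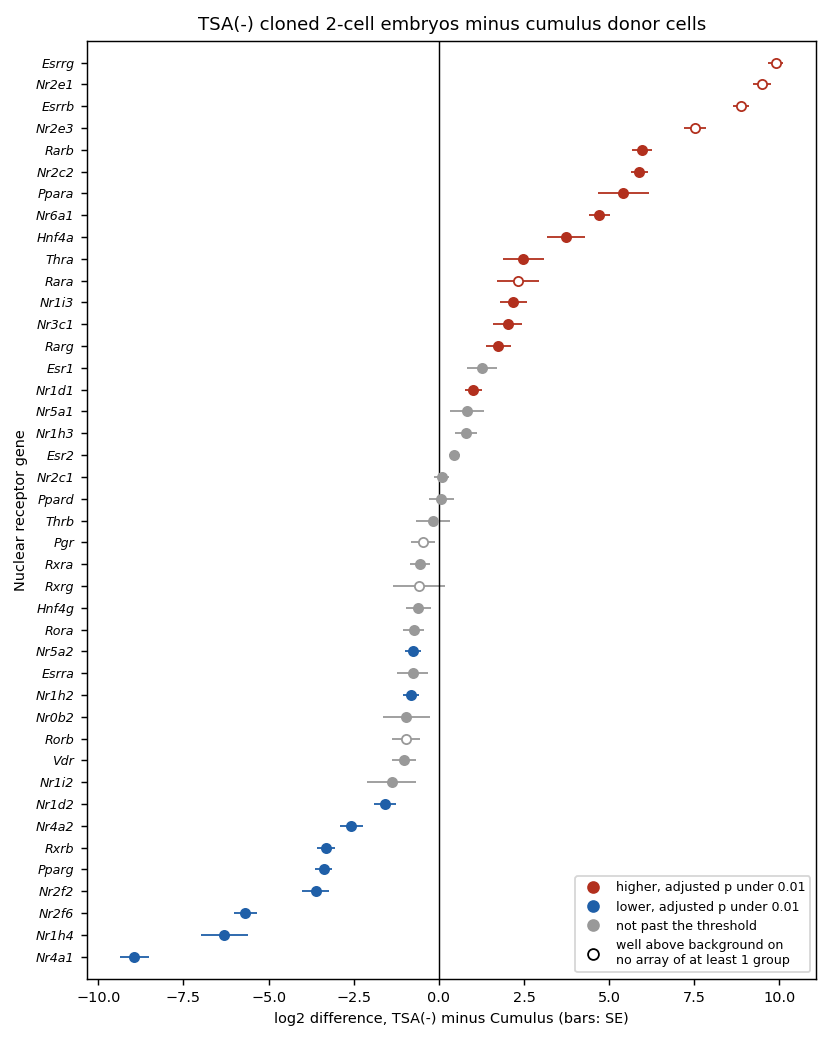
Difference in log2 level between TSA(-) clones and cumulus donor cells (x axis, TSA(-) minus Cumulus, bars 1 SE) for the 42 members tested (y axis). Red and blue points passed the threshold, grey ones did not, and open points were well above background on no array of at least 1 group, so their distance from 0 is only a bound. Esrrg, Nr2e1, Esrrb and Nr2e3 lie at one end and Nr4a1, Nr1h4 and Nr2f6 at the other.

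Genes around the receptors were counted from 5 lists. Of 15 retinoid-handling genes, 6 were higher and 2 lower in IVF than in OC, with a median of 0.45, where 23.3% of all probes were higher and 42.7% lower with a median of -0.88. Cyp26a1, which degrades retinoic acid, was higher by 5.30 ± 0.75 (SE, adjusted p = 2.92e-07). The plasma retinol carrier gene Rbp4, above background on 0 of 7 oocyte arrays, was at least 28.4-fold higher (means -1.95 ± 0.57 and -6.86 ± 0.92, adjusted p = 3.14e-05). Against IVF, none of the 15 was higher in either kind of clone, while 6 were lower in TSA(-) (median -0.76, all probes -0.05) and 7 in TSA(+) (median -1.11, all probes -0.23). Of all probes 8.49% were higher and 10.3% lower in TSA(-), and 7.83% and 11.1% in TSA(+). Rbp4 and Cyp26a1 differed from IVF by -5.11 and -4.67 in TSA(-) (adjusted p = 7.32e-05 and 1.21e-05) and by -4.77 and -4.29 in TSA(+) (adjusted p = 0.000376 and 9.43e-05), with no overlap. Crabp1, which binds retinoic acid in the cytoplasm, differed by -1.90 (adjusted p = 2.52e-05) and -2.20 (adjusted p = 7.85e-06). In the arrays labelled Spi-C 1.0 and Spi-C 0.1, Aldh1a3, which makes retinoic acid, was lower than in TSA(-), with differences of -4.02 and -4.23 (adjusted p = 0.00774 and 0.00549). Stra6, the retinol uptake receptor gene, was lower there too, with differences of -3.15 and -3.14 (adjusted p = 3.88e-08 and 3.98e-08).

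Of 24 textbook target genes of nuclear receptors, 13 were higher and 3 lower in IVF than in OC, with a median of 2.03 (all probes 23.3% higher, 42.7% lower, median -0.88). Klf9, a glucocorticoid and thyroid hormone target, was above background on 0 of 7 oocyte arrays and at least 148-fold higher in IVF (means 0.41 ± 0.34 and -6.82 ± 0.87, adjusted p = 9.31e-18), and the retinoic acid target Stra8 and the glucocorticoid target Tsc22d3 were higher by 6.53 ± 0.59 (SE, adjusted p = 5.14e-11) and 5.78 ± 0.38 (SE, adjusted p = 2.79e-14). In TSA(-) 3 of the 24 were higher and 6 lower than in IVF (all probes 8.49% and 10.3%), and in TSA(+) 4 and 6 (all probes 7.83% and 11.1%). Adamts1, a protease gene and progesterone receptor target, differed from IVF by -3.43 (adjusted p = 0.00594) and -4.20 (adjusted p = 0.00182). Abcg1, a cholesterol exporter gene and target of the LXR pair, differed by -3.11 (adjusted p = 4.80e-08) and -1.90 (adjusted p = 0.000204).

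Among 19 coregulators 5 were higher and 8 lower in IVF than in OC, near the shares of all probes (23.3% and 42.7%), led by Tbl1x, at least 54.0-fold higher (means -1.49 ± 1.09 and -7.26 ± 0.48, adjusted p = 1.54e-15), and by Hdac3 and Ncoa4, which differed by -3.94 and -3.93 (adjusted p = 5.13e-17 and 8.21e-17). In clones 1 was higher and 4 lower in TSA(-) than in IVF (all probes 8.49% and 10.3%), and 1 and 2 in TSA(+) (all probes 7.83% and 11.1%). Tbl1x was again the higher one, by 1.13 and 1.30 (adjusted p = 0.00807 and 0.00461). Nrip1, a corepressor gene, differed from IVF by -1.08 and -1.53 (adjusted p = 0.00315 and 0.000173). Of 13 chaperones of steroid receptors 5 were higher and 6 lower in IVF than in OC, with Bag1 at 5.71 and the HSP90 gene Hsp90ab1 at -3.34 (adjusted p = 9.48e-16 and 7.00e-17). Hspa4 was higher in TSA(-) and TSA(+) than in IVF by 1.59 and 1.47 (adjusted p = 1.15e-08 and 1.81e-07). Of 10 genes of steroid synthesis and conversion 1 was higher and 6 lower in IVF, and Cyp19a1, which encodes aromatase, differed by -5.75 ± 0.32 (SE, adjusted p = 7.02e-16). Srd5a1, a steroid reductase gene, was higher in TSA(-) and TSA(+) than in IVF by 1.44 and 1.64 (adjusted p = 0.000107 and 5.04e-05). In Cumulus 6 of the 10 were higher and 4 lower than in OC (all probes 23.4% and 44.4%). Hsd3b1 and Cyp11a1, which act early in steroid synthesis, were higher by 11.19 and 10.98 (adjusted p = 5.96e-15 and 7.58e-16). Higher and lower in Spi-C 1.0 than in TSA(-), where 7.79% and 6.43% of all probes were, were 2 and 2 of the retinoid-handling genes, 0 and 1 of the target genes, 2 and 2 of the coregulators, 0 and 3 of the chaperones and 2 and 0 of the steroid synthesis genes, and in Spi-C 0.1, against 7.2% and 6.53% of all probes, 0 and 2 of the retinoid-handling genes, 1 and 2 of the target genes, 4 and 1 of the coregulators, 0 and 2 of the chaperones and 1 and 0 of the steroid synthesis genes. Between TSA(-) and Cumulus, against 30.5% and 24.5% of all probes, the counts higher and lower in TSA(-) were 5 and 6 of the retinoid-handling genes, 7 and 12 of the target genes, 8 and 5 of the coregulators, 1 and 5 of the chaperones and 0 and 7 of the steroid synthesis genes. No gene of the 5 lists passed between TSA(+) and TSA(-) or between the Spi-C doses.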

How the data were processed

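Each deposited scanner file held 1 Cy3 array. Its processed intensity is, per the file headers, the Agilent Feature Extraction spot intensity after the authors' background subtraction and spatial detrending, with no scaling between arrays. The submitters' processing notes give version 9.5.3.1, while the headers give 9.5.3.1 for the OC, IVF and TSA arrays and 10.5.1.1 for the Spi-C and Cumulus arrays. The authors also deposited a value table of the same arrays on a log2 scale, used here as an alternative. Flags of 0 or 1 for background and saturation were read from the scanner files, and 0 columns of other series were present.

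Control and outlier spots were left out (1820 missing values), spots of a probe were averaged, and log2 intensity was taken relative to each array's 75th percentile. Probes were named through their RefSeq accession. Probes with an intensity of at least 10 on 1 or more IVF, TSA or Spi-C arrays were tested (39520 of 41174). limma (version 3.58.1, R 4.3.3) was fitted over all probes with Benjamini-Hochberg adjustment, and an adjusted p under 0.01 was called. Comparisons with Spi-C were fitted on the IVF, TSA and Spi-C groups, and the others on OC, IVF, TSA and Cumulus. A gene with several probes was counted once, by the tested probe of highest mean level. No value was imputed for a member, and no member spot was left out.

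The members and gene lists were chosen with earlier results of these data known. In each comparison up to 8 called members without overlap in each direction were given in full, or, below 3 called, the 3 of lowest p. Up to 3 genes of each list were named by size. Some genes of the lists are not reported here. The steps were tested on simulated data. The number of arrays limits the precision. Alternatives were the scaling, background correction, dim-probe filter, choice of probe, a one-way test with Tukey's comparison, slide, scan day or replicate number in the fit, all groups in 1 fit, and each array left out. Slide and scan day as fixed terms were added after the data were seen.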

Additional observations from a re-analysis of the deposited data

Results flagged for a closer look

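Outlying arrays were sought by Dixon's test in 120 sets of member levels, each from 1 gene in 1 group of 4 to 8 arrays. Only genes called in a comparison with that group and above background on all of its arrays were checked. Of the 120 sets 7 held an array that lay far from the others, where chance gives about 1 in 20, or 6. Nr1d1 in IVF replicate 1 was -2.71, against -2.09 to -1.72 on the other IVF arrays. Nr1d2 in OC replicate 6 was -0.58, against 1.27 to 2.10. Nr1h3 in TSA(+) replicate 5 was -2.14, against -1.49 to -1.14. Nr2c2 in OC replicate 2 was -3.31, against -2.41 to -1.78. Nr2f2 in TSA(-) replicate 3 was -5.95, against -4.13 to -3.19. Nr4a1 in Cumulus replicate 3 was 7.29, against 6.87 to 6.93. Nr5a2 in IVF replicate 5 was 3.02, against 2.58 to 2.74.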

How the results depend on the processing

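The number of members called moved by over 1.5 times in 4 cases. Under normexp background correction it was 10 for TSA(+) against IVF (6 in the report) and 5 for Spi-C 0.1 against TSA(-) (3 in the report). With all 7 groups in 1 fit it was 2 for Spi-C 1.0 against TSA(-) (4 in the report), and without TSA(-) replicate 2 it was 5 for Spi-C 0.1 against TSA(-). Leaving out each array in turn gave 28 to 30 members for IVF against OC, 6 to 7 for TSA(-) against IVF and for TSA(+) against IVF, 0 to 0 for TSA(+) against TSA(-) and for the Spi-C doses, 3 to 5 for Spi-C 1.0 and for Spi-C 0.1 against TSA(-), 31 to 32 for Cumulus against OC and 23 to 26 for TSA(-) against Cumulus. The sign turned for Esrrg in IVF against OC with arrays centred on their median (-0.025), for Pgr in IVF against OC under quantile normalization (0.19), for Pparg in Cumulus against OC under quantile normalization (0.29) and normexp (0.20), and for Rxra in Spi-C 0.1 against TSA(-) as a mean over its probes (0.036). In every setting other than leaving out an array, the call was kept for 20 of 29 members in IVF against OC, 3 of 6 in TSA(-) against IVF, 6 of 6 in TSA(+) against IVF, 1 of 4 in Spi-C 1.0 and 1 of 3 in Spi-C 0.1 against TSA(-), 26 of 32 in Cumulus against OC and 18 of 25 in TSA(-) against Cumulus.

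Same-numbered replicates deviated together little or not at all (correlations of -0.0875 to 0.0846). For TSA(-) against Cumulus the correlations were 0.0139 to 0.0715, and 3 of 4 TSA(-) arrays correlated best with their own number. In the other comparisons 0 to 2 arrays did. Weak correlations cannot show that samples were not collected together, so whether the numbers pair the samples is not known. With the replicate number as a block the count was 3 for Spi-C 1.0 against TSA(-), where Esrrb did not pass, and the counts of the other comparisons were 29 for IVF against OC, 6 for both clone groups against IVF, 3 for Spi-C 0.1 against TSA(-), 32 for Cumulus against OC, 25 for TSA(-) against Cumulus, and 0 for TSA(+) against TSA(-) and for the Spi-C doses. Weak signal limits Pgr, Rorb, Rxrg, Hnf4g, Nr2f1 and Nr4a3, whose differences near background could not be read. The causes of these changes were not tested.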
